A study of Mus musculus with 117 samples.

Results

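The comparison described here is between RiboTag libraries of the mGfap line, 5 made 14 d after a crush injury of the thoracic spinal cord (SCI) and 5 made from uninjured mice at postnatal day 63 (P63). These 10 libraries were chosen by their labels, and they are 10 of the 117 libraries of the series, of which 70 are RiboTag and 47 are flow-through libraries. All 10 mice carried mGfap-Cre-73.12, in which a mouse Gfap promoter drives Cre, together with the RiboTag allele, from which Cre activity produces a ribosomal protein with a hemagglutinin tag. Ribosomes were precipitated from homogenised spinal cord through the tag and the RNA on them was sequenced, while the RNA left in the supernatant gave the flow-through library of the same mouse. All 5 mice at 14 d were female with SCI and no other treatment named, and their age is not in the labels, whereas the P63 group had no treatment and held 3 males (replicates 1 to 3) and 2 females (replicates 4 and 5). Cre of this line is active from early life, so any cell that used the promoter at some earlier time, or that came from such a cell, carries tagged ribosomes, and the tissue block from injured cords included the lesion core. The libraries used as references were the 10 flow-through libraries of the same mice and 8 RiboTag libraries of Aldh1l1-CreERT-RiboTag females, 4 uninjured and 4 at 14 d after SCI, whose Cre is driven by the promoter of the astrocyte enzyme gene Aldh1l1 and is induced by tamoxifen in the adult. Younger controls were 4 RiboTag libraries of the mGfap line from uninjured mice at postnatal day 35 (P35), 2 males and 2 females.

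Astrocytes of the healthy cord clear glutamate and GABA, buffer potassium, supply neurons with metabolites and lipids and are coupled by gap junctions. After a crush they become reactive, and those near damaged tissue proliferate and form a border around a core of inflammatory and stromal cells. Glial progenitors also make oligodendrocytes after injury, and Schwann cells, the myelinating cells of peripheral nerve, can appear in the injured cord.

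Depth was high in all libraries and differed between the groups. Counts on genes summed to 99987229 to 117082323 per library at 14 d (median 111741779) and to 74999711 to 97184599 at P63 (median 77830415), ranges that do not overlap. The first principal component held 58.3% of the variance and separated 14 d from P63, and the second held 9.3% and set replicate 1 of each group apart from the other 8 libraries. Replicate 1 at 14 d also carried skeletal muscle genes at a summed level of 164 CPM (counts scaled to a common library total) against 3.28 to 4.86 in the other 14 d libraries, granulocyte genes at 34.2 CPM and erythrocyte genes at 18.3 CPM. Replicate 4 at 14 d stood apart in myeloid genes, described with the other cell types. Levels are CPM after TMM scaling unless stated, errors are SD over n = 5 libraries, and log2 fold changes are given ± SE. Tests are edgeR quasi-likelihood F tests adjusted over all genes by Benjamini and Hochberg, and a gene is said to have risen or fallen at an adjusted p under 0.01.

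Of 17848 genes tested, 4952 were higher at 14 d (27.7%) and 2935 were lower (16.4%), 44.2% in all, and the groups of 5 did not overlap in CPM for 39.3% of genes. Larger changes were mostly upward: 2702 called genes were at least 2-fold higher and 991 at least 2-fold lower, and 825 were at least 8-fold higher against 46 at least 8-fold lower. The balance depended on the expression level. Among genes with a mean under 1 CPM, 632 rose and 99 fell, whereas among genes with a mean of 100 CPM or more 527 rose and 612 fell. It also depended on scaling, which was taken over these 10 libraries and the 8 Aldh1l1 libraries together. The median log2 fold change over all genes was 0.17 as fitted and 0.10 with DESeq2-type size factors (RLE), which gave 4437 higher and 3351 lower. With the mGfap groups fitted alone the median was 0.04, and 3481 of 16702 genes were higher and 2962 lower. When at least 10 counts were required in every library of 1 group, the median was -0.004 and the split was 3839 higher and 4061 lower. Changes below are read against the all-gene median of 0.17. In bulk RNA of this kind, fewer cells of a type and less RNA per cell cannot be told apart.

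**Figure D1:**
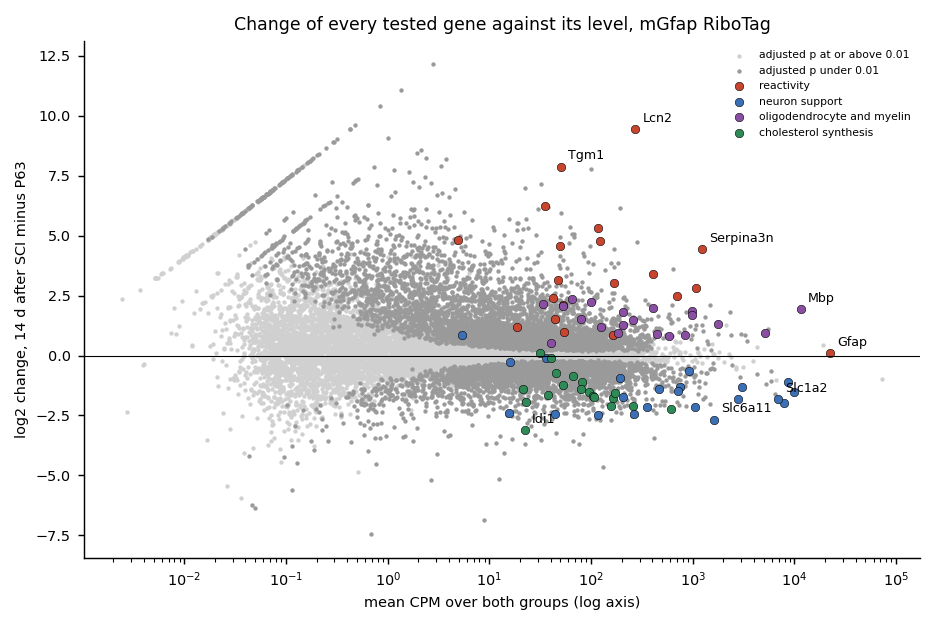
Each point is 1 of 17848 genes, with the mean level over both groups on the x axis (CPM, log scale) and the log2 fold change of 14 d over P63 on the y axis, with called genes (adjusted p under 0.01) in dark grey, the others in light grey and the genes of 4 lists in colour. Reactivity and myelin genes lie above 0 and most neuron support and cholesterol genes below it, and called genes spread further upward than downward, with 825 at least 8-fold higher and 46 at least 8-fold lower.

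Gfap, the intermediate filament gene whose promoter drives Cre in this line and the usual marker of reactive astrocytes, did not separate the groups. It stood at 18560, 23860, 21110, 22320 and 22090 CPM in P63 replicates 1 to 5 and at 22280, 25090, 22800, 18520 and 25780 CPM at 14 d. The groups overlapped, and the log2 fold change of 0.08 ± 0.11 did not pass the test (edgeR adjusted p = 0.544) and took the opposite sign under several alternative settings. Aldh1l1, the folate enzyme gene used to mark astrocytes, fell from 299.9 ± 25.8 to 185 ± 41.9 CPM, with no overlap (log2 -0.70 ± 0.13, adjusted p = 1.78e-04).

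The genes that define resting astrocytes fell together. Of 12 astrocyte markers all were detected, 10 fell and none rose, with a median log2 fold change of -1.49 against 0.17 for all genes, and their summed level was 31170 to 34780 CPM at P63 and 7523 to 17020 CPM at 14 d. Slc1a2, the main glutamate transporter of astrocytes, stood at 10960, 10510, 9262, 11190 and 11780 CPM in the P63 replicates and at 3051, 4633, 2262, 1714 and 3473 CPM at 14 d. Every injured library was below every uninjured one, with replicate 4 lowest and replicate 2 highest, and the log2 fold change was -1.83 ± 0.20 (adjusted p = 4.18e-07). The growth factor receptor gene Fgfr3 fell by 2.07, the gap junction gene Gjb6 by 2.05 and the glycolytic enzyme gene Aldoc by 1.59 on the log2 scale.

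Genes by which astrocytes serve neurons fell as widely. Of 22 genes for transmitter uptake, ion transport and synapse formation, 19 fell and none rose (median -1.63). The largest fall was in Slc6a11, which encodes the GABA transporter GAT-3. Its level was 2856, 2752, 2663, 2762 and 2954 CPM at P63 and 412.5, 746, 314.6, 168 and 560.2 CPM at 14 d, again lowest in replicate 4 and highest in replicate 2, and the P63 mean was 6.35 times the 14 d mean (log2 -2.67 ± 0.27, adjusted p = 1.59e-07). The glypican gene Gpc5 fell by 2.49 and the amino acid transporter gene Slc7a10 by 2.44 on the log2 scale. The sodium pump subunit gene Atp1b2, among the highest of the list in CPM, fell by 1.10.

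Reactivity genes rose in 19 of 20 cases, with Gfap as the exception, and their median log2 fold change was 3.09. Lcn2, a secreted iron-siderophore binding protein gene and the largest change of all genes with at least 10 counts in every library, stood at 0.480, 0.227, 0.172, 2.73 and 0.162 CPM in the P63 replicates. At 14 d it stood at 626, 267, 466, 1027 and 331.5 CPM, a ratio of means of 721 (log2 9.44 ± 0.76, adjusted p = 1.62e-08). P63 replicate 4 was the highest of its group, and the lowest 14 d library was still far above it. Tgm1, a transglutaminase gene, went from 0.107, 0.366, 0.209, 0.831 and 0.595 CPM to 128, 72.0, 87.8, 119.7 and 98.1 CPM (log2 7.88 ± 0.37, adjusted p = 3.80e-11). The metalloreductase gene Steap4 rose by 6.23 on the log2 scale. Serpina3n, a protease inhibitor gene, rose from 109 ± 36.7 to 2352 ± 512 CPM, 21.6-fold (log2 4.43 ± 0.21, adjusted p = 3.55e-11).

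**Figure D2:**
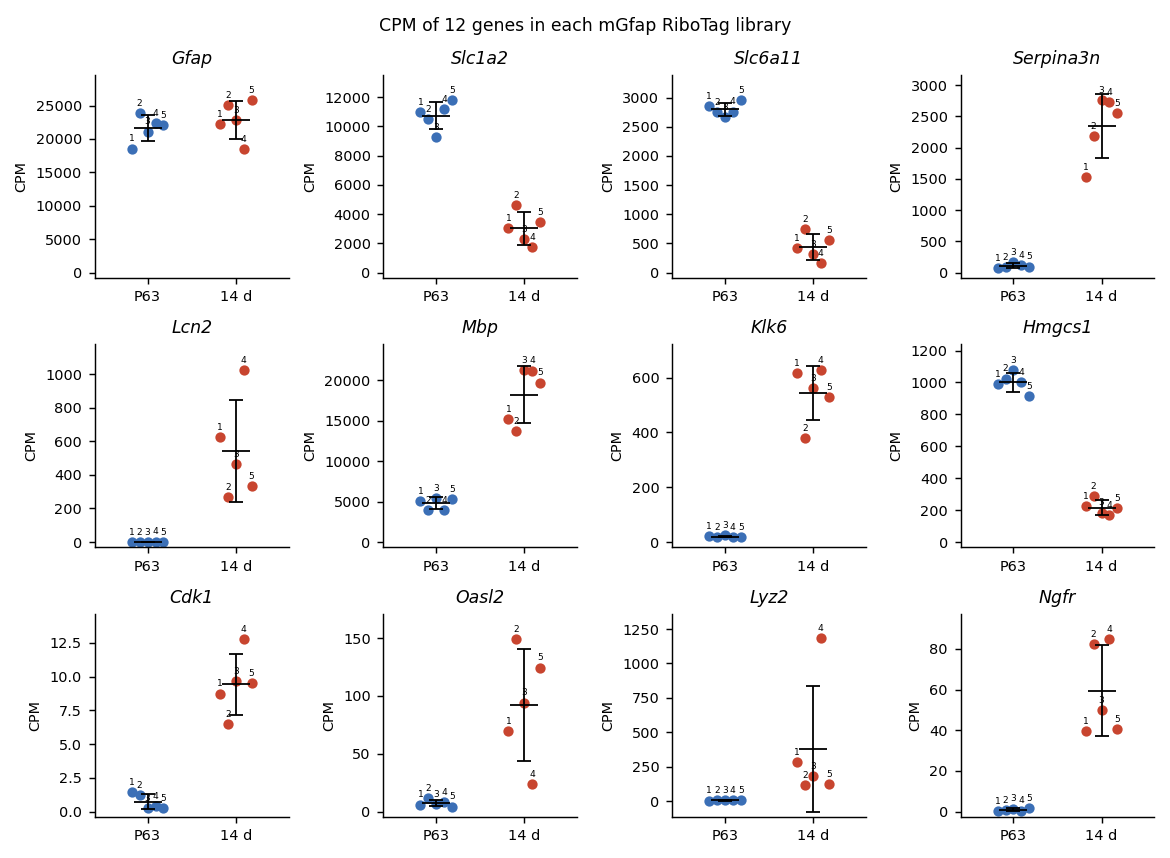
Level (CPM, linear axis, a scale of its own for each of 12 genes) in the 5 P63 and 5 14 d RiboTag libraries of the mGfap line, 1 numbered point per replicate, with bars for the mean ± SD. Gfap overlaps between the groups, Slc1a2, Slc6a11 and Hmgcs1 are lower in every 14 d library, and the other 8 genes, among them Lcn2, Serpina3n, Mbp, Klk6 and Ngfr, are higher in every one.

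Genes of cholesterol synthesis fell together. Astrocytes make much of the cholesterol of the central nervous system, and of 19 genes of the pathway 17 fell and none rose, with a median of -1.58 and a summed level of 3188 to 3444 CPM at P63 against 820.3 to 1214 CPM at 14 d. Idi1, which encodes the isomerase of isopentenyl diphosphate, stood at 34.9, 42.6, 41.5, 39.2 and 41.0 CPM at P63 and at 1.65, 8.19, 4.38, 3.12 and 5.70 CPM at 14 d (log2 -3.11 ± 0.28, adjusted p = 5.59e-08). Hmgcs1, which encodes the synthase that makes HMG-CoA, stood at 988, 1025, 1079, 1004 and 916 CPM and then at 224, 287, 185, 169 and 213 CPM (log2 -2.22 ± 0.13, adjusted p = 3.30e-10). No injured library reached any uninjured one for either gene. Cyp51, the sterol demethylase gene, fell by 2.10 on the log2 scale.

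The promoters of these genes are shown because all 14 members with a promoter window shared a short element. Windows ran from 250 bases before to 50 bases after the annotated start in RefSeq (GRCm38.p6), and a gene was counted if any of its windows held the motif on either strand. The letters CCAAT, the box bound by NF-Y, were found in 14 of 14 cholesterol genes (100%) and in 18 of 20 cell cycle genes (90%), against 42.2% of 13375 tested genes with a window, 5 of 10 astrocyte markers (50%) and 6 of 15 myelin genes (40%). The windows of the pair just described follow, both on the plus strand, with each CCAAT or its complement ATTGG in capitals, for Hmgcs1 at chr13:119690101-119690400 and for Idi1 at chr13:8885356-8885655.
Hmgcs1: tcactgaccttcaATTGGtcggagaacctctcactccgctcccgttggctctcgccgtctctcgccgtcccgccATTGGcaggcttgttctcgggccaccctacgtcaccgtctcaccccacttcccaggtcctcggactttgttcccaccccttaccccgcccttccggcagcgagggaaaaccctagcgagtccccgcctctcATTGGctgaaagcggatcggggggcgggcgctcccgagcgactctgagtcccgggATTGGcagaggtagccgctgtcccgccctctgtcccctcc
Idi1: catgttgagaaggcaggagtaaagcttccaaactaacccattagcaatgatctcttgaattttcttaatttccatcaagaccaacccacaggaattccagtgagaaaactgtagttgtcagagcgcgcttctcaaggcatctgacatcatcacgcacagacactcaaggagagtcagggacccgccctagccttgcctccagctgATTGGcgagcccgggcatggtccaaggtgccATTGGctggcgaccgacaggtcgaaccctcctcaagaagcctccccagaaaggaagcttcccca
Hmgcs1 held 4 matches and Idi1 held 2. A sterol response type element was searched as TCACNCCAC, which was in 1 of 14 (7.14%) and in 1.45% of tested genes. The box CACGTG was in 3 of 14 (21.4%) against 10.8%. A match describes the letters in the window and is not a measured binding site.

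Interferon-stimulated genes rose in 20 of 20 cases, with a median log2 fold change of 2.82, and their summed level was 184.1 to 256 CPM at P63 and 482 to 1308 CPM at 14 d. Ifi44 rose by 4.63 and the immunity-related GTPase gene Iigp1 by 3.90 on the log2 scale. Oasl2, an oligoadenylate synthetase-like gene, stood at 5.97, 11.4, 6.61, 8.17 and 4.34 CPM at P63 and at 69.3, 149, 94.2, 23.6 and 124 CPM at 14 d, with replicate 4 lowest (log2 3.65 ± 0.40, adjusted p = 4.82e-07). Ifit3, which encodes an antiviral tetratricopeptide protein, overlapped between the groups, at 28.6, 34.9, 26.98, 33.7 and 23.7 CPM and then at 119, 165, 86.7, 24.4 and 107 CPM, and passed the test (log2 1.76 ± 0.39, adjusted p = 9.85e-04). The membrane protein gene Ifi27, highest of the list in CPM with Ifit3, rose by 1.97.

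An interferon-type element, GAAANNGAAA on either strand, was in the windows of 10 of 16 interferon genes (62.5%), against 3.77% of all tested genes, 1 of 14 cholesterol genes (7.14%), 1 of 20 cell cycle genes (5%) and 0 of 15 myelin genes. The 10 were Gbp2, Gbp3, Ifit1, Ifit3, Isg15, Oas1a, Bst2, Irgm1, Igtp and Rsad2. Ifit3 is shown for its pair of matches, in capitals and as the complement, in the window at chr19:34583279-34583578 on the plus strand.
Ifit3: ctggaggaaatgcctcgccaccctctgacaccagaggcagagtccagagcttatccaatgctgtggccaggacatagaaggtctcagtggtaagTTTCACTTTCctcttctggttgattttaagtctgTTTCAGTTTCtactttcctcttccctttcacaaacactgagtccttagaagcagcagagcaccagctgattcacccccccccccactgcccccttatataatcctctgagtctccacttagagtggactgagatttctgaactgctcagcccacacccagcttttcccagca
The STAT-type elements TTCCNGGAA and TTCNNNGAA were in 2 (12.5%) and 5 (31.2%) of the 16 genes, against 1.47% and 8.2% of tested genes, and matches of the first are also matches of the second. The reactivity genes held them in 2 (10%) and 5 (25%) of 20. Of the other motifs searched, TGTTTAC was in 3.13% of tested genes, GCCNNNGGC in 27.2%, CATTGT in 9.4% and TTTCGCGC, an E2F-type site, in 0.673% of tested genes and 3 of 20 cell cycle genes (15%).

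Complement and antigen presentation genes rose in 20 of 21 cases (median 2.33). The 3 chains of C1q, the recognition molecule of the classical pathway, rose most, by 4.96 (C1qc), 4.55 (C1qa) and 4.54 (C1qb) on the log2 scale. C1qb stood at 0.879, 1.39, 1.03, 1.10 and 1.27 CPM at P63 and at 19.8, 8.61, 12.9, 77.8 and 12.7 CPM at 14 d, where replicate 4 was well above the rest. C1q genes are typical of microglia and macrophages, and replicate 4 was also the library with the highest summed myeloid level, whose part in this result was not tested. C3 and C4b, which encode central complement components, rose by 1.26 and 1.5, and the 14 d libraries of C4b were 626, 587, 570.3, 511 and 556 CPM against 176, 208, 219, 216 and 188 CPM at P63.

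Cell cycle genes rose in 22 of 24 cases (median 2.04). Cdk1, the mitotic kinase gene, stood at 1.44, 1.21, 0.270, 0.426 and 0.270 CPM at P63 and at 8.74, 6.49, 9.67, 12.8 and 9.51 CPM at 14 d, with no overlap (log2 3.71 ± 0.54, adjusted p = 1.44e-05). The ubiquitin ligase gene Ube2c rose by 3.83 and the topoisomerase gene Top2a by 3.13. The replication genes Pcna and Mcm4, highest of the list in CPM, moved little, since Pcna rose by 0.35 (adjusted p = 0.00151) and Mcm4 was at -0.22, which did not pass the test (adjusted p = 0.032). The window of Cdk1 at chr10:69352863-69353162, on the minus strand, is shown as the cell cycle example of the CCAAT element described above, with its 3 matches or complements in capitals.
Cdk1: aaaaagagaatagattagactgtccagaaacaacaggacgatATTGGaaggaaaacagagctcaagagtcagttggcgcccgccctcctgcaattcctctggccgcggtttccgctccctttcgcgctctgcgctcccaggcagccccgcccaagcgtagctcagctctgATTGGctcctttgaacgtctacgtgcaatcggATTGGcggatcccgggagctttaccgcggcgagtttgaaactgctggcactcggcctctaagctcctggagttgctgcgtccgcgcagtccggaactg

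Genes of glial progenitors and their signalling went both ways, 8 up, 9 down and 7 not called of 24 (median 0.08). Hes5, a Notch target gene, fell by 3.36 and the transcriptional inhibitor gene Id2 by 0.70, whereas Socs3, the feedback inhibitor of cytokine signalling, rose by 3.26, cyclin D1 (Ccnd1) by 2.62 and the radial glia lipid carrier gene Fabp7 by 0.75 on the log2 scale. Hes5 stood at 6.25, 6.41, 7.11, 7.80 and 7.88 CPM at P63 and at 0.843, 0.879, 0.849, 0.421 and 0.445 CPM at 14 d.

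Oligodendrocyte and myelin genes were higher in the tagged pool after injury. All 20 of 20 rose, with a median of 1.5, and their summed level was 10050 to 14230 CPM at P63 and 28540 to 43010 CPM at 14 d. Mbp, the gene of myelin basic protein, stood at 5112, 3960, 5479, 3987 and 5364 CPM at P63 and at 15170, 13730, 21310, 21220 and 19730 CPM at 14 d, 3.81-fold by the means and with no overlap (log2 1.93 ± 0.26, adjusted p = 4.24e-06). The transcription factor gene Nkx6-2 rose by 2.36 and Enpp6, a marker of newly forming oligodendrocytes, by 2.15. Oligodendrocyte precursor (OPC) markers rose in 6 of 10 cases (median 0.83), led by the matrix gene Matn4 (2.81), the lineage factor gene Sox10 (2.33) and the proteoglycan gene Cspg4 (1.18). The rise of Matn4 was larger in the Aldh1l1 line, with a log2 difference of -1.06 (mGfap minus Aldh1l1). Olig1 did not pass the test (log2 0.13 ± 0.12, adjusted p = 0.345), and its sign turned under some alternatives.

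Levels at a younger uninjured age are given beside these, without a test between the ages. In 4 uninjured RiboTag libraries of the same line from postnatal day 35 (P35), scaled here to total counts only, the summed level of the 20 myelin genes was 16620 to 28910 CPM, against 9785 to 15120 at P63 and 28280 to 47140 at 14 d. Mbp was 5432 to 11840 CPM at P35, 3851 to 5823 at P63 and 15030 to 23360 at 14 d, and so was above both ages in every injured library. With P35 in place of P63 as the control, 7 of the 20 myelin genes passed the test upward, as did 3 of 10 OPC markers and 2247 of all 17033 genes tested.

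**Figure D3:**
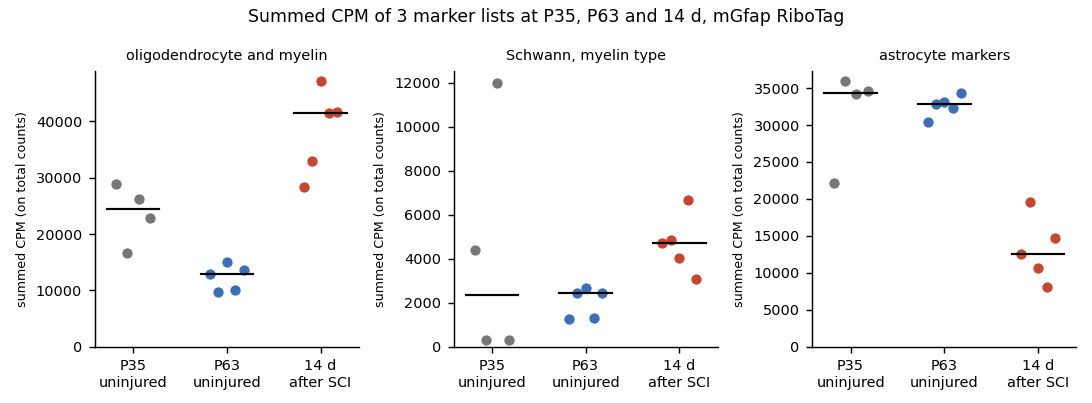
Summed level of 3 marker lists (CPM on total counts, axes from 0) in RiboTag libraries of the mGfap line from uninjured mice at P35 (4) and P63 (5) and at 14 d after SCI (5), 1 point per library and a bar at the median. Myelin genes at P35 lie between 16620 and 28910 CPM, above every P63 library, and the highest of them passes the lowest library at 14 d.

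Schwann cell genes rose in part. Of 14 genes of the immature and repair type, 11 rose and none fell (median 2.69), and the sum over the list was 292 to 353 CPM at P63 and 549.9 to 708 CPM at 14 d. Ngfr, the low-affinity neurotrophin receptor gene, stood at 0.107, 0.581, 1.497, 0.469 and 1.66 CPM at P63 and at 39.5, 82.1, 49.7, 84.6 and 40.6 CPM at 14 d, 68.7-fold by the means (log2 6.11 ± 0.53, adjusted p = 3.84e-08). The neural crest factor gene Foxd3 rose by 3.78, the adhesion gene L1cam by 2.91 and the growth cone gene Gap43 by 2.52, while Sox2 did not pass (-0.08 ± 0.09, adjusted p = 0.512). Of 9 genes of the myelinating type, 6 rose and 1 fell. The factor gene Pou3f1 rose by 2.76, the myelin lipid carrier gene Pmp2 by 2.10 and the tight junction gene Cldn19 by 1.81. At P35 the summed level of the myelinating type ran from 290 to 11960 CPM on total counts. With P35 controls 1 of 9 genes of the myelinating type and 4 of 14 of the repair type passed upward, as did 2247 of all 17033 genes. Ngfr, Foxd3, L1cam, Pmp2 and Cldn19 were then no longer called, nor was Enpp6 of the oligodendrocyte lineage.

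Ependymal and motile cilia genes changed in 6 of 17 cases, all upward (median 0.21), where 27.7% of all genes rose and their median was 0.17, so the list as a whole stood near all genes. The ciliogenesis factor gene Foxj1 rose by 1.42, the cilia gene Cfap126 by 1.48 and the secreted protein genes Mia and Rarres2 by 2.88 and 1.41.

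Matrix and basement membrane genes rose in 24 and fell in 5 of 31 cases (median 1.46). The collagen VI genes Col6a1 and Col6a2 rose by 5.54 and 5.34, and Timp2, an inhibitor of metalloproteases, by 2.12. Col6a2 stood at 2.01, 3.76, 3.12, 2.24 and 3.81 CPM at P63 and at 92.6, 87.7, 160.4, 142 and 123 CPM at 14 d. Bcan, the brain proteoglycan gene highest in CPM of the list, fell by 1.33 on the log2 scale. Mmp12, a metalloprotease gene known from macrophages, had no counts in any P63 library and stood at 3.96, 2.00, 2.48, 17.5 and 2.02 CPM at 14 d, at least 138-fold higher when each P63 library is set to 3 counts.

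Among 25 secreted growth factors 13 rose and 4 fell (median 0.79). Tgfb1 rose by 3.91, Igf2 by 2.30 and Igf1 by 2.26, while Fgf1 fell by 0.98 on the log2 scale and Ptn, the pleiotrophin gene, did not pass (0.26 ± 0.13, adjusted p = 0.081). Igf1, which encodes a trophic factor, stood at 3.04, 7.71, 4.93, 3.56 and 6.003 CPM and then at 24.1, 19.1, 17.1, 46.0 and 14.6 CPM.

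Phagocytosis and lipid handling genes rose in 11 and fell in 3 of 20 cases (median 0.64). Trem2, a lipid-sensing receptor gene of microglia and macrophages, rose by 5.68, the glycoprotein gene Gpnmb by 4.43, the galectin gene Lgals3 by 3.03 and the lysosomal protease gene Ctsb by 1.81. Gpnmb stood at 11.9, 12.9, 13.3, 21.7 and 15.2 CPM at P63 and at 237, 127, 239.6, 835 and 179.9 CPM at 14 d, far highest in replicate 4. Apoe, the lipid carrier gene, stood at 16300 ± 1343 and 21920 ± 6858 CPM, overlapped between the groups and did not pass (log2 0.43 ± 0.16, adjusted p = 0.0279).

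Markers of other cells were present, and the levels of some moved with the injury. The summed level of 16 myeloid markers was 519, 220.5, 309.6, 1764 and 241.2 CPM in the 14 d replicates 1 to 5 and 23.3 to 28.9 CPM at P63, with replicate 4 far above the others. Of these 16 genes, 12 rose and 1 fell, and lysozyme (Lyz2) stood at 3.32, 6.97, 7.51, 4.38 and 4.64 CPM and then at 285, 116, 179, 1185 and 122 CPM (log2 6.14 ± 0.64, adjusted p = 3.01e-07). Microglia markers rose in 5 of 8 cases, stroma and pericyte markers in 7 of 10 and endothelial markers in 3 of 6. Lymphocyte markers rose in 2 of the 7 tested, near the 27.7% of all genes that rose. Their summed level was 0.189 to 0.666 CPM at P63 and 0.694 to 2.10 CPM at 14 d. Granulocyte (0 of 8), erythrocyte (0 of 5) and skeletal muscle genes (0 of 8) had no calls in edgeR, nor among the 5, 3 and 1 of them that DESeq2 tested, and in none of them were the groups apart. At an unadjusted p under 0.05 edgeR gave 2 granulocyte, 0 erythrocyte and 6 skeletal muscle genes, all higher at 14 d, where 60.3% of all genes were past it in either direction. At an adjusted p under 0.05 it gave 2, 0 and 5, all higher, where 6184 of all 17848 genes were higher. Neuron markers fell in 4 and rose in 2 of 10 cases. No marker of these lists was at 0 in all 10 libraries. The lists described above kept their counts when replicate 1 of both groups was left out, or replicates 1 and 4 at 14 d with replicate 1 at P63, within 1.5 times, except that the myelinating Schwann type gave 4 of 9 and 2 of 9 upward, endothelial markers 2 of 6 and 1 of 6, and lymphocyte markers 1 of 7 and 1 of 8. In both cases 1 of 8 skeletal muscle genes was called lower and the median of that list went from 2.55 to -0.13 and -0.03. Without replicates 1 and 4 at 14 d and 1 at P63, complement genes gave 14 of 21 upward and growth factors 9 of 25. Interferon genes stayed at 20 of 20. The medians were then 1.46 for complement genes, 2.635 for myeloid and 1.10 for microglia markers, against 2.33, 3.45 and 1.76 with all libraries.

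**Figure D4:**
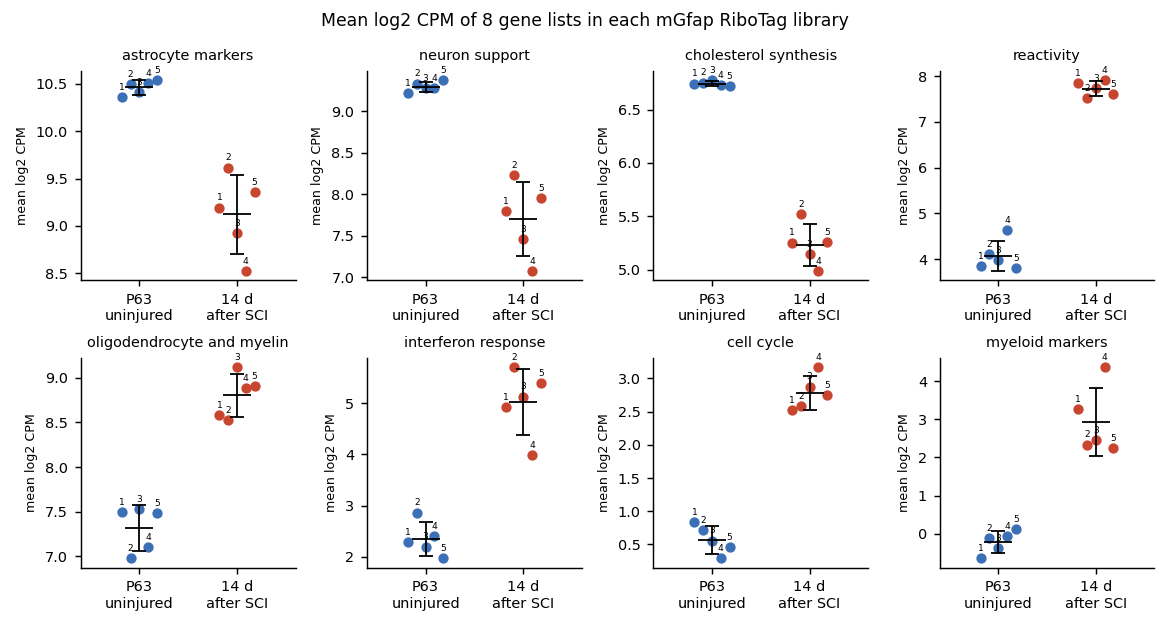
Mean log2 CPM over the genes of 8 lists in every RiboTag library of the mGfap line, P63 (5) and 14 d (5), 1 numbered point per replicate, with bars for the mean ± SD over libraries and axes that do not start at 0. The astrocyte, neuron support and cholesterol lists are lower in all 14 d libraries, and the reactivity, myelin, interferon, cell cycle and myeloid lists are higher in all of them, with replicate 4 at 14 d lowest in astrocyte and interferon genes and highest in myeloid genes.

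Over all genes, those with the largest rises, given at least 10 counts in every library, were Lcn2, Klk8, Steap4, Postn, Lyz2, H19, Crym and Trem2. Klk8, a secreted kallikrein protease gene at chr7:43797532-43803826 (mm10), rose 125-fold (log2 6.97 ± 0.38, adjusted p = 1.14e-10), from 0.586, 0.353, 0.245, 0.234 and 0.365 CPM to 42.6, 20.6, 52.6, 72.4 and 34.6 CPM. Postn, the matricellular periostin gene, rose by 6.17, the imprinted noncoding RNA H19 by 5.92 and the thyroid hormone binding crystallin gene Crym by 5.69 on the log2 scale. H19 is expressed mainly before birth, and it stood at 0.879, 2.50, 2.45, 1.25 and 1.22 CPM at P63 and at 126, 79.5, 94.1, 147 and 56.5 CPM at 14 d. A further 195 genes rose from no more than 3 counts in every P63 library. Those with the highest level at 14 d were Mmp12, the kallikrein gene Klk9 (at least 104-fold higher), the urocortin gene Ucn2 (at least 95.6-fold), the heparanase gene Hpse (at least 87.2-fold) and the apolipoprotein gene Apoc4 (at least 66.1-fold).

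The largest falls were in Kirrel2, Bc1, Acvr1c, Mc5r, Hsd11b1, Ppp1r3g, Hif3a and Cables1. Kirrel2, an immunoglobulin superfamily adhesion gene at chr7:30447766-30457515 (mm10), went from 19.9, 22.4, 22.5, 29.5 and 27.9 CPM to 0.896, 1.07, 0.498, 0.243 and 0.675 CPM, and its P63 mean was 36.1 times its 14 d mean (log2 -5.17 ± 0.32, adjusted p = 5.76e-10). Bc1, a noncoding RNA of neuronal dendrites, fell by 4.63, the activin-type receptor gene Acvr1c by 4.08, the melanocortin receptor gene Mc5r by 3.69 and the glucocorticoid-regenerating enzyme gene Hsd11b1 by 3.69. Ppp1r3g, a glycogen-targeting phosphatase subunit gene, fell by 3.68 and the hypoxia factor gene Hif3a by 3.63. Cables1, a Cdk adaptor gene, had the smallest p of these, going from 139.5, 124, 117, 132 and 104 CPM to 11.8, 11.9, 8.76, 7.83 and 12.0 CPM (log2 -3.56 ± 0.14, adjusted p = 4.00e-12).

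The mGfap line was then set against the other astrocyte line at the same time after injury. In Aldh1l1-CreERT-RiboTag females 3883 of the same 17848 genes rose and 3475 fell (41.2% in all). The difference between the changes of the lines, tested as an interaction in the same fit, passed for 2258 genes (12.7%), higher in the mGfap line for 1376 (7.71%) and lower for 882 (4.94%). Its median over all genes was 0.11, and with RLE size factors, where it was 0.02, the split was 1064 higher and 1108 lower. Uninjured and injured libraries are not shared between the lines, but the Cre lines differ in the time of Cre activity, which cannot be told apart from the line. The controls also differ in sex, and with sex as a covariate 836 genes were higher in the mGfap line and 587 lower. The mGfap controls were at P63, whereas the labels give no age for the Aldh1l1 mice or the injured mGfap mice. A difference in age can therefore not be told apart from the line either.

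Astrocyte and neuron support genes fell in both lines. Astrocyte markers fell in 10 of 12 cases in each line, and none differed between the lines at an adjusted p under 0.01, with 2 of 12 at an unadjusted p under 0.05, both lower in the mGfap line (33.5% of all genes were past it). The neuron support genes fell in 20 of 22 cases in the Aldh1l1 line (19 in the mGfap line) and 1 differed. Interferon genes rose in 20 of 20 in both, with 1 differing. Cholesterol genes fell in 17 of 19 in both lines, and 9 of the 19 had a less negative change in the mGfap line (medians -1.58 and -2.41). That count was 5 of 19 with sex as a covariate and without Aldh1l1 uninjured replicate 3 or 4 or Aldh1l1 14 d replicate 3, and 6 of 19 with RLE size factors.

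Myelin genes went opposite ways. In the Aldh1l1 line 14 of 20 fell and none rose (median -1.03), and the change was higher in the mGfap line for 19 of 20 (18 with sex as a covariate). In uninjured mGfap libraries the summed level of these genes was higher at P35 than at P63, as given above. The part of age in the difference between the lines was not tested. Mbp was 3020 ± 1566 CPM in 4 uninjured and 1268 ± 211 CPM in 4 injured Aldh1l1 libraries, a log2 change of -1.25, and the lines differed by 3.18 ± 0.38 (adjusted p = 8.17e-06). The repair-type Schwann genes differed upward in 4 of 14, among them Ngfr by 4.34 (adjusted p = 1.54e-04). Of the myelinating type 5 of 9 differed upward, a count that fell to 1 with sex as a covariate or without Aldh1l1 14 d replicate 3, and to 2 with the replicate number as a block or without Aldh1l1 uninjured replicate 1 or 2 or mGfap 14 d replicate 1.

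Phagocytosis genes rose less in the mGfap line, with 14 of 20 differing downward (medians 0.64 and 1.99), as did 7 of 16 myeloid and 4 of 8 microglia markers. With sex as a covariate these were 3 of 16 and 2 of 8, and the myeloid count was 4 without Aldh1l1 uninjured replicate 2, Aldh1l1 14 d replicate 2 or mGfap P63 replicate 4 and 12 without mGfap 14 d replicate 4. The summed myeloid level in the Aldh1l1 line was 58.3 to 111 CPM uninjured and 10170 to 15260 CPM at 14 d, above every mGfap library at 14 d, and its part in the difference was not tested. Gfap rose by 0.91 in the Aldh1l1 line and differed between the lines by -0.82 ± 0.17 (adjusted p = 0.00153).

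The genes with the largest differences in favour of the mGfap line were Npb (6.08), Klk6 (5.42), Nkx2-9 (5.06), Lcn2 (4.54) and Barx2 (4.51) on the log2 scale. Klk6, a protease gene known from oligodendrocytes, stood at 21.5, 17.2, 25.6, 18.1 and 18.5 CPM in the P63 replicates and at 616, 380.3, 561, 628 and 529.8 CPM at 14 d in the mGfap line (log2 4.75 ± 0.33, adjusted p = 3.09e-09). In the Aldh1l1 line it was 89.4, 81.5, 31.1 and 22.4 CPM uninjured and 33.9, 37.5, 28.1 and 41.4 CPM at 14 d. All 5 injured mGfap libraries were thus above all other libraries of the comparison. Npb, the gene of the peptide neuropeptide B, stood at 0.506, 0.429, 0.221, 0.905 and 0.906 CPM and then at 20.5, 9.16, 18.5, 20.01 and 14.3 CPM in the mGfap line, against 3.92 ± 2.49 and 1.602 ± 0.420 CPM in the Aldh1l1 line (n = 4 each). Nkx2-9 and Barx2 are homeobox genes. The largest differences in the other direction were in Nrros (-4.76), Rnf128 (-4.22), Gpnmb (-4.07), Ctss (-3.98) and C3ar1 (-3.82). Nrros, which encodes a TGF-beta binding protein of myeloid cells, fell by 2.10 on the log2 scale in the mGfap line and rose by 2.66 in the Aldh1l1 line.

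**Figure D5:**
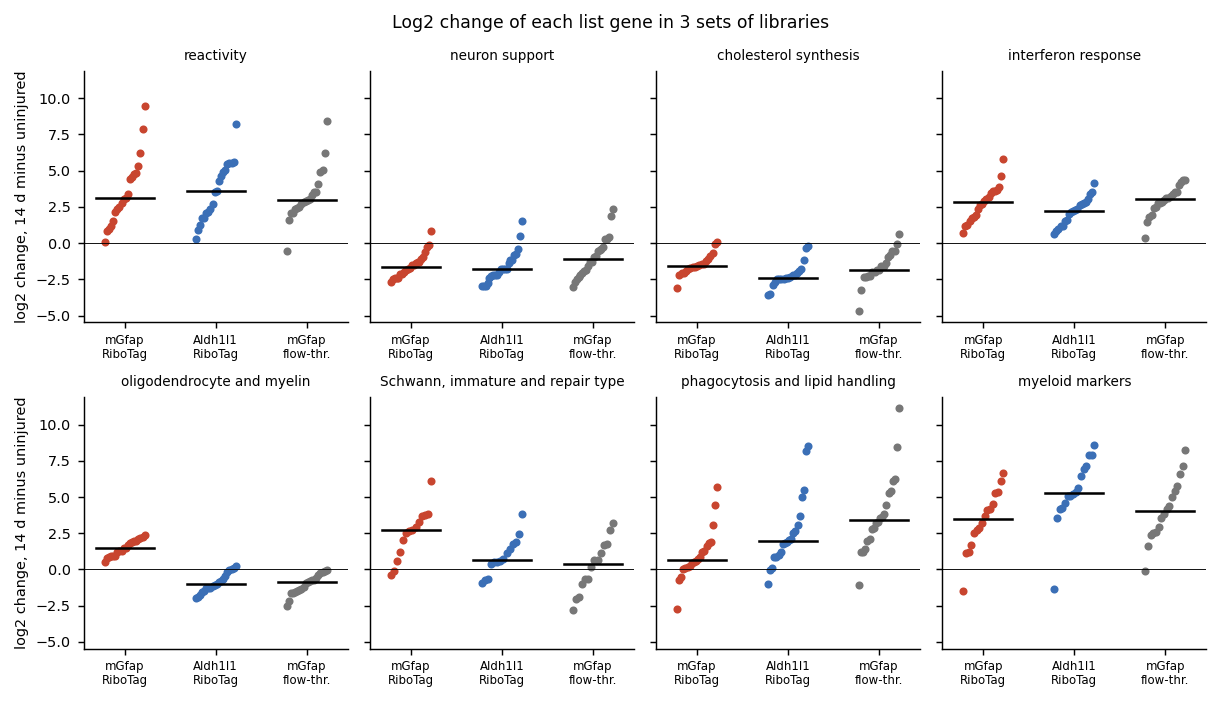
Log2 change of 14 d minus uninjured for each tested gene of 8 lists, 1 point per gene in order of its change, in mGfap RiboTag, Aldh1l1 RiboTag and mGfap flow-through libraries, with a bar at the median. Medians of the neuron support and cholesterol lists are below 0 in all 3 sets, and that of the myelin list is 1.5 in mGfap RiboTag libraries and -1.03 and -0.89 in the other sets.

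The flow-through libraries gave the change in the rest of the tissue of the same mice. There 5903 of 17949 genes rose (32.9%) and 5095 fell (28.4%), 61.3% in all. Astrocyte markers fell in 6 and rose in 2 of 12 cases (median -0.65), and cholesterol genes fell in 17 and rose in 1 of 19. Myelin genes fell in 15 of 20 cases and rose in none (median -0.89), with Mbp at 15730 ± 1126 CPM at P63 and 10510 ± 2087 CPM at 14 d. Gfap rose there by 1.61 (adjusted p = 5.78e-06).

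Tested across all 20 libraries, the change differed between RiboTag and flow-through for 5594 of 18427 genes (30.4%), higher in RiboTag for 2820 (15.3%) and lower for 2774 (15.1%). This test did not pair the RiboTag and flow-through libraries of the same mouse. All 20 myelin genes, 8 of 14 repair-type Schwann genes and 7 of 10 OPC markers had a higher change in RiboTag. Phagocytosis genes had a lower one in 17 of 20 cases and complement genes in 9 of 21. Cell cycle genes had a lower one in 3 of 24 cases, near the 15.1% of all genes, with a median difference of 0.185. Lcn2 (5.82), Npb (5.78), Nkx2-9 (4.83), the synaptotagmin gene Syt4 (4.59) and the small GTPase gene Rab37 (4.33) had the largest differences upward on the log2 scale. Gpnmb (-6.81), Gdf10 (-6.48), Apoc1 (-5.89), Lgals3 (-5.49) and Gli1 (-5.39) had the largest downward. Gdf10, a BMP family gene, and Gli1, the hedgehog effector gene, fell in RiboTag libraries by 2.66 and 2.88 on the log2 scale and changed by 3.73 and 2.42 in flow-through. Apoe rose in flow-through from 839 ± 73.7 to 63900 ± 23490 CPM, a gene whose RiboTag levels overlapped between the groups.

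Sex and the age of the controls touch the main comparison. With sex as a covariate 3310 genes rose and 2191 fell, and with the 5 females at 14 d against the 2 females at P63 alone 1735 rose and 1234 fell, with fewer libraries. Among females alone the lists stood at 14 of 20 for myelin, 14 of 24 for cell cycle, 11 of 20 for interferon, 8 of 21 for complement and 5 of 16 for myeloid markers upward, and at 8 of 12 for astrocyte markers, 16 of 22 for neuron support and 15 of 19 for cholesterol downward. With sex as a covariate complement was 13 of 21, the repair-type Schwann genes 6 of 14 and the myelinating type 3 of 9. The 3 calls of endothelial markers were lost with P35 controls, with sex as a covariate or among females alone. With P35 controls 2247 of 17033 genes rose and 1990 fell. Matrix genes then rose in 11 of 31 cases, growth factors in 8 of the 24 tested and stroma markers in 2 of 10. Microglia markers rose in 1 of 8 (also 1 of 8 among females alone), near the share of all genes in both settings. Reactivity (18 of 20), interferon (18 of 20), cholesterol (18 of 19) and astrocyte markers (10 of 12) gave counts within 1 or 2 genes of those with P63.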

How the data were processed

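RNA-seq counts were analysed for 32 libraries, the 10 RiboTag and 10 flow-through libraries of the mGfap line at 14 d and P63, 4 RiboTag libraries at P35 and 8 RiboTag libraries of the Aldh1l1 line. Samples were grouped by title, sex, treatment and time in the labels. RNA with an integrity number above the submitters' minimum was sequenced from poly(A)-selected libraries as paired reads. Trimming was by Trimmomatic, alignment to mm10 by HISAT2 and counting by featureCounts, per the authors' methods and notes, and the deposited values are whole-number counts per gene without normalization for 27179 gene identifiers, of which RefSeq annotation named 25275. Counts from 1 to 10 were even in 69.2% of cases, and whether both reads of a pair were counted is not given in the sources used here. Overlapping and near-identical genes were not resolved, and whether counting used strand is not given in the sources used here.

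Tests were edgeR 4.0.16 quasi-likelihood F tests in R 4.3.3 (glmQLFit, robust=TRUE and legacy=TRUE) on TMM-scaled counts that passed filterByExpr, with Benjamini-Hochberg adjustment over all genes tested and calls at an adjusted p under 0.01. The 2 RiboTag lines were fitted together, the flow-through libraries alone, and all 20 mGfap libraries together for the difference between RiboTag and flow-through. SE was taken from the F statistic. A list level is the mean log2 CPM with a prior count of 2, and no test was made on a list. Folds from no more than 3 counts in every P63 library are bounds against 3 counts per library. Alternatives were RLE size factors, DESeq2 1.42.0, other filters and thresholds, sex as a covariate, females only, P35 controls, a replicate block and leaving out each library. The scripts were tested on simulated data. There 78% of 2-fold changes were called in the main comparison and 57% for the difference between the lines. For flow-through alone it was 42%, and for the difference between RiboTag and flow-through 27%. In each simulation only 200 genes were changed, all with a P63 mean above 1 CPM. The rates therefore do not cover genes at lower levels or changes as widespread as those called in the data. A gene that was not called may therefore still differ.

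Members and gene lists were chosen with earlier results of these data known, and the skeletal muscle list after its values were seen. Of 385 list genes 384 were matched. Genes named are Gfap and Aldh1l1, in each list the 3 largest changes past the threshold with no overlap and a mean of at least 5 CPM in the higher group and the 2 highest in mean CPM, the 8 largest rises and falls over all genes with at least 10 counts in every library and at least 10 CPM in the higher group, the 5 highest genes from no more than 3 counts, and the 5 largest differences in each direction between the lines and between RiboTag and flow-through. Sex-linked genes were left out of the named genes, and 4 genes that the rule names are not reported here. Replicate numbers were not used to pair 14 d with P63 mice, since correlations of same-numbered deviations were 0.005 to 0.08, while RiboTag and flow-through libraries of 1 number come from 1 animal (0.157 to 0.576 at 14 d, 0.046 to 0.197 at P63). P-values measure the spread between mice of these groups, except in the test of RiboTag against flow-through, which treated both libraries of 1 mouse as independent. Promoter windows and motifs were read from RefSeq sequences (GRCm38.p6), and 10 motifs were searched on both strands.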

Additional observations from a re-analysis of the deposited data

Results flagged for a closer look

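A single library stood apart by Dixon's test in 20 of the 226 groups of 5 mGfap RiboTag libraries looked at. The threshold is about 1 in 20 for a single group. The groups share the same libraries and are not independent, and the skeletal muscle list was chosen after its values were seen. The count of 20 is therefore not set against chance. Flow-through, P35 and Aldh1l1 libraries were not looked at in this way. Replicate 4 at 14 d was the library that stood apart in most of the 20 groups. It was highest in the summed myeloid level (1764 CPM), Lyz2 (1185), Gpnmb (834.7), C1qb (77.8), Tgfb1 (41.8), C3ar1 (28.1), Mmp12 (17.5), Rnf128 (16.01), Hpse (9.95), Steap4 (135.4) and Foxd3 (35.5 CPM), and lowest in Hif3a (0.870 CPM). Replicate 1 at 14 d was highest in summed skeletal muscle genes (164.4 CPM), granulocyte markers (34.2), erythrocyte genes (18.3) and Crym (42.3 CPM). Among P63 libraries, replicate 4 was highest in Lcn2 (2.73 CPM) and Steap4 (2.45), and replicate 2 was highest in Iigp1 (2.60 CPM). Replicate 4 was also lowest in Hpse (0.0107 CPM), a gene with no more than 3 counts in every P63 library.

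The change after injury differed between the mGfap and the Aldh1l1 line at an adjusted p under 0.01 (edgeR interaction test) for 41 of 102 named genes (12.7% of all genes), some of them named because this difference was among the largest, and the values that follow are log2 changes of the mGfap line minus those of the Aldh1l1 line. Genes of the oligodendrocyte lineage were higher in the mGfap line, with Enpp6 at 3.27, Mbp at 3.18, Olig1 at 2.93, Sox10 at 2.83 and Nkx6-2 at 2.30, except Matn4 at -1.06. Schwann cell genes were higher too, with Ngfr at 4.34, Pou3f1 at 2.67, Foxd3 at 2.65, L1cam at 2.37, Cldn19 at 2.01 and Sox2 at 0.87. Lower were Gpnmb at -4.07, Lgals3 at -2.43, Apoe at -1.49 and Ctsb at -1.29, of the phagocytosis and lipid handling list. Nrros at -4.76, Ctss at -3.98, C3ar1 at -3.82 and C1qb at -2.71 were lower too.

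Secreted proteins and their relatives went both ways, with Npb at 6.08, Klk6 at 5.42, Lcn2 at 4.54, Klk8 at 4.00, Col6a2 at 2.96, Postn at 1.96 and C4b at 0.72 against Gdf10 at -0.90 and Timp2 at -0.84. Of the transcription factor and signalling genes, Nkx2-9 was at 5.06 and Barx2 at 4.51, and Hif3a was at -2.32 and Ccnd1 at -1.36. The remaining genes were Rab37 (3.64), H19 (3.41), Syt4 (2.85), Ifi27 (1.31), Gfap (-0.82), Ppp1r3g (-1.25), Bc1 (-2.53) and Rnf128 (-4.22).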

How the results depend on the processing

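The main comparison kept more genes higher than lower under most settings, with 4127 and 3550 in DESeq2 and, without each library in turn, 4490 to 5003 higher and 2634 to 3133 lower. Counts fell by over 1.5 times with females only (1735 and 1234), with P35 controls (2247 higher) and with the replicate block (3222 higher), which pairs mice by a number that the data do not tie together. With the animal as a block, RiboTag and flow-through changes differed for 3650 genes upward and 3422 downward, within 1.5 times of the counts without it. The line difference gave 2355 higher and 1527 lower at an adjusted p under 0.05, 836 and 587 with sex as a covariate, 1490 and 1563 in DESeq2, and 745 to 1679 higher and 676 to 1137 lower without each library in turn. More genes were lower than higher in DESeq2, with RLE size factors (1064 and 1108) and without Aldh1l1 uninjured replicate 3 (816 higher, 1137 lower) or 4 (844 and 1080) or Aldh1l1 14 d replicate 3 (745 and 1112). As the median over genes rather than the mean, the list change was -1.30 for cholesterol and 3.16 for reactivity.

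The log2 change of Gfap in RiboTag libraries fell below 0 with the mGfap groups alone (-0.020), in DESeq2 (-0.014), with the filter of 10 counts (-0.071), with the replicate block (-0.027), with females only (-0.061) and without replicate 1 of both groups (-0.051), a setting chosen after seeing the data, as was leaving out replicate 4 at 14 d as well. The log2 change of Olig1 in RiboTag libraries did so with the filter of 10 counts (-0.023), with females only (-0.017) and with P35 controls (-0.17), and with P35 controls also that of Pmp22 (-0.13) and the log2 change of Rnf128 in RiboTag libraries (-0.032). The causes were not tested. Of the other values of named genes in the main comparison, 2271 kept their direction and side of the threshold, 55 lost the call and 8 gained it. C3ar1 lost its line difference with sex as a covariate. Depth limits genes at a few counts per library, most of all at P63, where totals were lower.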

Other observations

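Klk6, Klk8 and Klk9, named above, are members of 1 family of secreted proteases whose genes lie side by side on chromosome 7, and all members with enough counts were therefore read out after the values of these genes had been seen. Of 26 kallikrein genes in the files 7 were tested, 4 rose and none fell. Klk7, the fourth, went from a mean of 0.00746 to 0.322 CPM (edgeR adjusted p = 6.42e-04). Klk10 (1.53, adjusted p = 0.207) and Klk13 (1.69, adjusted p = 0.0882) did not pass, nor did Klk1 (adjusted p = 0.873), which was under 0.01 CPM in both groups. In the flow-through libraries of the same mice Klk8 rose by 3.58 and Klk9 by 3.55, and Klk6 changed by 0.53 (adjusted p = 0.0185), which did not pass.

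The apolipoprotein genes next to Apoe on the same chromosome were read in the same way. Apoc1 rose by 1.89 (adjusted p = 1.18e-05), Apoc2 from 0.0946 to 4.18 CPM (log2 5.48, adjusted p = 6.64e-06) and Apoc4 from no counts, whereas Apoe itself did not pass. In flow-through Apoe rose by 6.26, Apoc1 by 7.68 and Apoc2 by 8.43 on the log2 scale.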
